A study of Caenorhabditis elegans with 2 samples.

Results

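The mir-51 family of Caenorhabditis elegans consists of 6 microRNA (miRNA) genes, mir-51, mir-52, mir-53, mir-54, mir-55 and mir-56, out of 260 miRNA genes and 46926 genes of all kinds in the RefSeq annotation. They were chosen by the ChIP-seq regions that earlier results of the same data showed beside them, that is on summit positions and signal values, so the counts and signal values at these genes are a description and were not tested. Chromatin immunoprecipitation followed by sequencing (ChIP-seq) had been done on whole young adult hermaphrodites of strain OP543, a stable transgenic line in which SDZ-38 carries a C-terminal GFP-FLAG tag. The L1 larvae had been starved to synchronize them, and the worms were harvested 64 hours later. The pull-down is described as anti-GFP, whereas the antibody field reads sdz-38. There was 1 group, with 2 biological replicates from separate biosamples of the same line. All animals carried the tag, and no library from untagged worms is analysed here, so signal from tagged SDZ-38 and signal that an untagged worm would also give cannot be told apart. Region lists hold no expression values, so the young adult stage could not be checked against marker genes.

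miRNAs are short RNAs cut from hairpin precursors. In the nucleus Drosha and its partner Pasha release the hairpin, Dicer cuts it to a duplex, and an Argonaute protein such as ALG-1 carries one strand to messenger RNAs that pair with its seed, which is the stretch of bases 2 to 8. The mir-51 family belongs to the same broad group as miR-99 and miR-100 of other animals. Worms that lack the whole family die as embryos or young larvae, with a pharynx that fails to stay attached, and the cadherin gene cdh-3 has been reported as a target.

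The mature sequences show what makes these 6 genes a family. They were read 5′ to 3′ from the RefSeq genome of build WBcel235 (ce11) at the annotated positions, as RNA, with the seed in capitals.
mir-51: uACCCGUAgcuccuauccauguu
mir-52: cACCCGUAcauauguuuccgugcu
mir-53: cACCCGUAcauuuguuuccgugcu
mir-54: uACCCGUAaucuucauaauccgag
mir-55: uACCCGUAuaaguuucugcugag
mir-56: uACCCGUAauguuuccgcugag

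The seed ACCCGUA was the same in all 6, and its 7 bases were the only positions identical throughout the mature sequences, which are 22 to 24 bases long. In mir-51, mir-52 and mir-53 the sequence with this seed comes from the 5′ arm of the hairpin, and in mir-54, mir-55 and mir-56 from the 3′ arm. mir-52 and mir-53 were the closest pair, identical at 23 of 24 bases of the mature sequence and at 79 of 100 aligned bases of the precursor. The other precursor pairs were 45.0% to 57.1% identical.

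The 6 genes lie at 4 places on the X chromosome and chromosome IV, if genes within 1000 bp of each other count as 1 locus. mir-54 (chrX:13144996-13145094), mir-55 (chrX:13144827-13144924) and mir-56 (chrX:13144691-13144787) follow each other on the minus strand with gaps of 71 and 39 bp. They sit in an intron of the protein-coding gene F09A5.3, which runs on the plus strand, so they are antisense to their host. The annotation places a further miRNA gene, F09A5.15 (chrX:13144830-13144919, plus strand), antisense to mir-55. mir-51 (chrIV:11026013-11026112, minus strand) and mir-53 (chrIV:11027593-11027691, minus strand) are intergenic, with 1480 bp between them and the 5′ ends of alh-3 and hrg-5 on either side. From mir-51 those 5′ ends are 3410 and 3316 bp away, and from mir-53 they are 4990 and 1737 bp away. The 3′ end of alh-3 is much nearer to mir-51, since alh-3 (chrIV:11022603-11025870, plus strand) runs toward it. mir-52 (chrIV:14034008-14034107, plus strand) stands alone, with the nearest protein-coding 5′ ends, those of irld-55 and Y37A1B.7, at 13810 and 9673 bp, and it overlaps a non-coding RNA gene (WBGene00199919) on the other strand.

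4 lists of regions were read. The authors' optimal list holds 102 regions that passed their irreproducible discovery rate (IDR) procedure, the pooled list from both replicates together holds 1242, the replicate 1 list 17743 and the replicate 2 list 12648. The replicate lists are lenient lists of peaks and background. Each region has a summit and a signal value, a score of the authors whose scale is not stated, and ranks were taken by it within a list, with 1 as the strongest. The read depth behind the values is unknown. The mitochondrial genome held 21 regions of the optimal list, 21 of the pooled list, 16 of replicate 1 and 20 of replicate 2, and most of the places above mir-51 in the pooled list were mitochondrial. Median signal values over nuclear regions were 70.4 in the optimal list, 44.0 in the pooled list, 16.5 in replicate 1 and 15.5 in replicate 2.

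A gene was counted as having a region when a summit lay within 1000 bp of it. By that rule 4 of the 6 family genes had a region in the optimal list, beside 0.394% of the other miRNA genes (1 of 254, F09A5.15, for the region it shares with the mir-54 cluster). In the pooled list 5 of 6 had one, beside 3.94% (10 of 254). In replicate 1 the count was again 5 of 6, beside 37.8% (96 of 254), and in replicate 2 it was 5 of 6, beside 38.6% (98 of 254). mir-51, mir-52, mir-54, mir-55 and mir-56 made up the 5, and mir-53 had no region in any of the 4 lists. These 5 genes rest on 3 regions, since mir-54, mir-55 and mir-56 share 1.

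**Figure D1:**
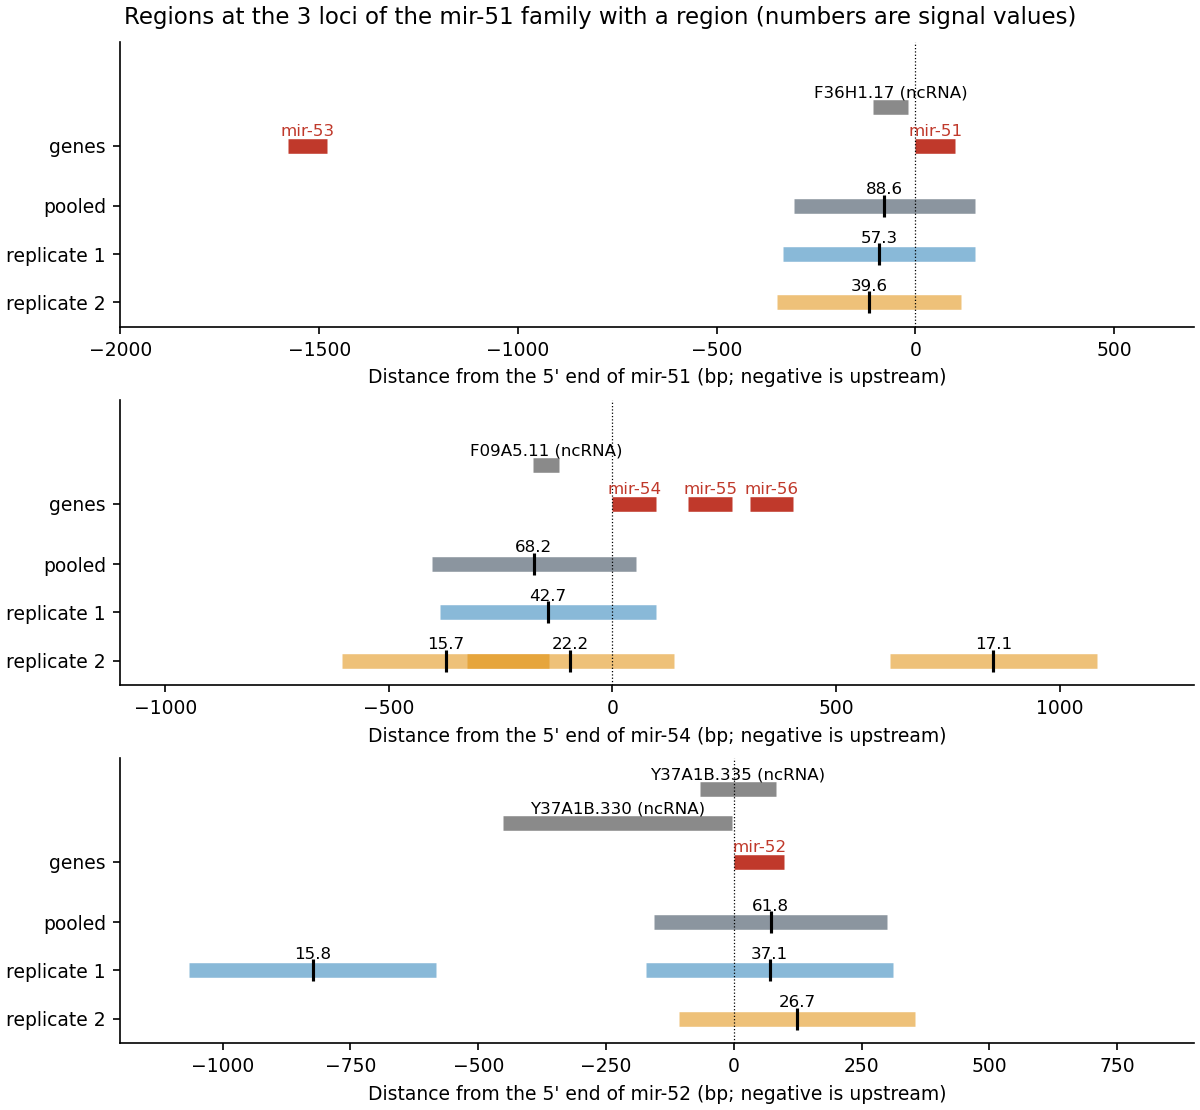
Regions (bars, with the summit as a black mark and the authors' signal value above it) in the pooled list and in each replicate list, by distance from the 5′ end of mir-51, mir-54 or mir-52 in bp, with family genes in red and non-coding RNA genes in grey. The strongest summits lie upstream of mir-51 and mir-54 and at mir-52, and no region reaches mir-53.

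mir-51 had the strongest region of any miRNA gene in every list. Its signal value was 57.3 in replicate 1 (rank 29 of 17743), 39.6 in replicate 2 (rank 53 of 12648) and 88.6 in the pooled list (rank 39 of 1242), where the same region is also rank 39 of the optimal list. These values were 3.48, 2.56 and 2.02 times the median of nuclear regions in replicate 1, replicate 2 and the pooled list. Counting nuclear regions alone, it was 13th in replicate 1, 33rd in replicate 2 and 18th in the pooled list. Both replicates thus placed it near the top.

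The summits stood just ahead of the gene. The pooled region spanned chrIV:11025962-11026417, with its summit 78 bp upstream of the 5′ end of mir-51. In replicate 1 the summit was 92 bp upstream and in replicate 2 it was 117 bp upstream. A short annotated non-coding RNA gene on the same strand lies just ahead of mir-51, F36H1.17 (chrIV:11026131-11026219), 89 bp long. The pooled and replicate 1 summits fell inside it, and the replicate 2 summit fell outside any gene.

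F36H1.17 is shown because the strongest region of the family is centred on it. It is also shown because it holds sequence matches to internal promoter elements known from tRNA genes. RNA polymerase III genes of the tRNA kind carry an A box and a B box inside the transcribed stretch, bound by the factor TFIIIC, and end at a run of T. The sequence is given 5′ to 3′ on the minus strand from the RefSeq genome (WBcel235, chrIV:11026111-11026219), that is the gene and 20 bases past its 3′ end, with matches to the A box and the B box in capitals.
F36H1.17: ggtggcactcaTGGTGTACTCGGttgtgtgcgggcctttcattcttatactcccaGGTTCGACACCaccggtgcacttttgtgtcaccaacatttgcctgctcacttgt

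The A box and the B box were 32 bases apart, and a run of 4 T began 10 bases after the B box. This run (chrIV:11026140-11026143) lies inside the annotated gene, ahead of its 3′ end. The pooled summit lay 7 bp from the A box and 26 bp from the B box, and the B box ended 42 bp ahead of mir-51. F36H1.17 is annotated as an unclassified non-coding RNA, not as a tRNA. The B box was searched on both strands without a mismatch. The A box and the T run were looked for after the sequence had been seen. A match is a description of these letters and shows neither a bound factor nor transcription.

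How common this was can be read from the other summits. A B box lay within 50 bp of 46 of 1221 nuclear summits of the pooled list (3.77%) and of 6 of 81 of the optimal list (7.41%). For 9 of those 46 no tRNA gene or tRNA pseudogene was annotated within 250 bp. Of these 9, 7 also had an A box 20 to 90 bases before the B box on the same strand. Over all 46 the A box search matched at 19. Most of the summits beside a tRNA gene or pseudogene thus had no A box match, so the search does not single out tRNA-like genes. The mir-51 region was the second strongest of the 9 without a tRNA gene nearby, after one in the snoRNA gene C51F7.4 with a signal value of 158. In the replicate lists the share was 0.496% of nuclear summits in replicate 1 and 0.800% in replicate 2. Over the genome 1760 B boxes were found, of which 599 lay within 250 bp of a tRNA gene. In the window from 250 bases before to 50 bases after the 5′ end, mir-51 was the only one of the 6 genes with a B box, and none of the other 254 miRNA genes had one.

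The cluster of mir-54, mir-55 and mir-56 shared the second region. Its signal value was 42.7 in replicate 1 (rank 57), 22.2 in replicate 2 (rank 982) and 68.2 in the pooled list (rank 72), and the same region holds rank 72 of the optimal list. This is where the replicates differed most within the family, since the region was 2.59 times the nuclear median in replicate 1 and 1.43 times in replicate 2. Its high place in the pooled list is therefore not matched by replicate 2 alone.

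The pooled region covered chrX:13145042-13145497, so it overlapped the 5′ part of mir-54, the first gene of the cluster, and not mir-55 or mir-56. Its summit was 176 bp upstream of mir-54, 346 bp upstream of mir-55 and 483 bp upstream of mir-56. In replicate 1 it was 145 bp and in replicate 2 it was 94 bp upstream of mir-54. The pooled and replicate 1 summits fell in F09A5.11 (chrX:13145213-13145271), a non-coding RNA gene of 59 bp on the strand of the miRNAs, and the replicate 2 summit fell in the F09A5.3 intron outside it. Replicate 2 also had weaker regions on either side, with signal values of 15.7 at 373 bp upstream of mir-54 (rank 5965) and 17.1 at 449 bp beyond mir-56 (rank 4087).

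mir-52 had a region in both replicates and in the pooled list but not in the optimal list. Its signal value was 37.1 in replicate 1 (rank 104), 26.7 in replicate 2 (rank 310) and 61.8 in the pooled list (rank 108). The weakest nuclear region of the optimal list had 62.6, so mir-52 lay just below it. All 81 nuclear regions of the pooled list at or above that value were optimal, and mir-52 was 87th among nuclear regions. Replicate 1 listed a further, weak region 823 bp upstream with a signal value of 15.8 (rank 10453).

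At mir-52 the summit lay in the gene itself, not ahead of it. The pooled summit was 72 bp and the replicate 1 summit 70 bp downstream of the 5′ end, inside the 100 bp gene, and the replicate 2 summit was 25 bp past its 3′ end. The non-coding RNA gene on the minus strand overlaps this stretch, and a longer one (WBGene00195705, chrIV:14033557-14034004), on the strand of mir-52, ends just ahead of it.

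The bases around the pooled summits of mir-54 and mir-52 are shown because the first lies in the upstream non-coding RNA gene and the second in the hairpin. Both are 101 bases of the RefSeq genome (WBcel235), 5′ to 3′ on the strand of the miRNA. At mir-54 (chrX:13145220-13145320, minus strand) capitals mark the reverse complement of GAGAGA, and at mir-52 (chrIV:14034030-14034130, plus strand) they mark the parts of both mature arms that fall in the window.
mir-54 summit: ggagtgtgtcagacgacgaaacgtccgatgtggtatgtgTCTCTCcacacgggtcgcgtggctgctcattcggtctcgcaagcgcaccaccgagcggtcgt
mir-52 summit: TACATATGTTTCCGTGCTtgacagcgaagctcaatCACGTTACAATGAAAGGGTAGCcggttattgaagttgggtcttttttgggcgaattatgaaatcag

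The base composition differed between the summits. The GC content was 51.5% around the mir-51 summit, 61.4% around that of mir-54 and 41.6% around that of mir-52, beside a median of 42.6% and a range of 15.8% to 71.3% over all nuclear pooled summits. Neither window printed above held a B box. Its closest stretch had 3 mismatches in both, which 66.9% of pooled summits match or better. GAGAGA was found in 9.09% of pooled summit windows. The whole pooled regions shared no long stretch of sequence, since the longest word common to all 3 had 7 bases, and the longest common to mir-51 and either of the others had 9.

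mir-53 was the member without a region. It lies upstream of mir-51 on the same strand, and the nearest summit in each list was that of mir-51, 1403 bp away in the pooled and optimal lists, 1389 bp in replicate 1 and 1364 bp in replicate 2. These distances fall just outside the limit of 1000 bp, and the farthest summit just inside it was the weak one 823 bp from mir-52. Another summit just outside was a weak one 1079 bp from mir-51 in replicate 1, with a signal value of 15.9. Every word of 31 bases in mir-53 and 228 bp to each side of it occurs once in the genome, and the same held for every word of the regions at mir-51, mir-52 and mir-54. So mir-52 and mir-53, alike at all but 1 base of the mature sequence, stood on opposite sides of the rule in the pooled and both replicate lists, and neither had a region in the optimal list. With a limit of 2000 bp the region of mir-51 counts for mir-53 too, which makes 5 of 6 genes in the optimal list and 6 of 6 in each of the other lists.

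Set beside each other, mir-51 was highest in both replicates. Its signal value was 1.34 times that of the mir-54 cluster in replicate 1 and 1.78 times in replicate 2, and 1.55 and 1.48 times that of mir-52. The mir-54 cluster was 1.15 times mir-52 in replicate 1 but 0.832 times mir-52 in replicate 2, so the order of these neighbours turned round between replicates. With 2 replicates and no stated scale, no test of these differences was made.

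**Figure D2:**
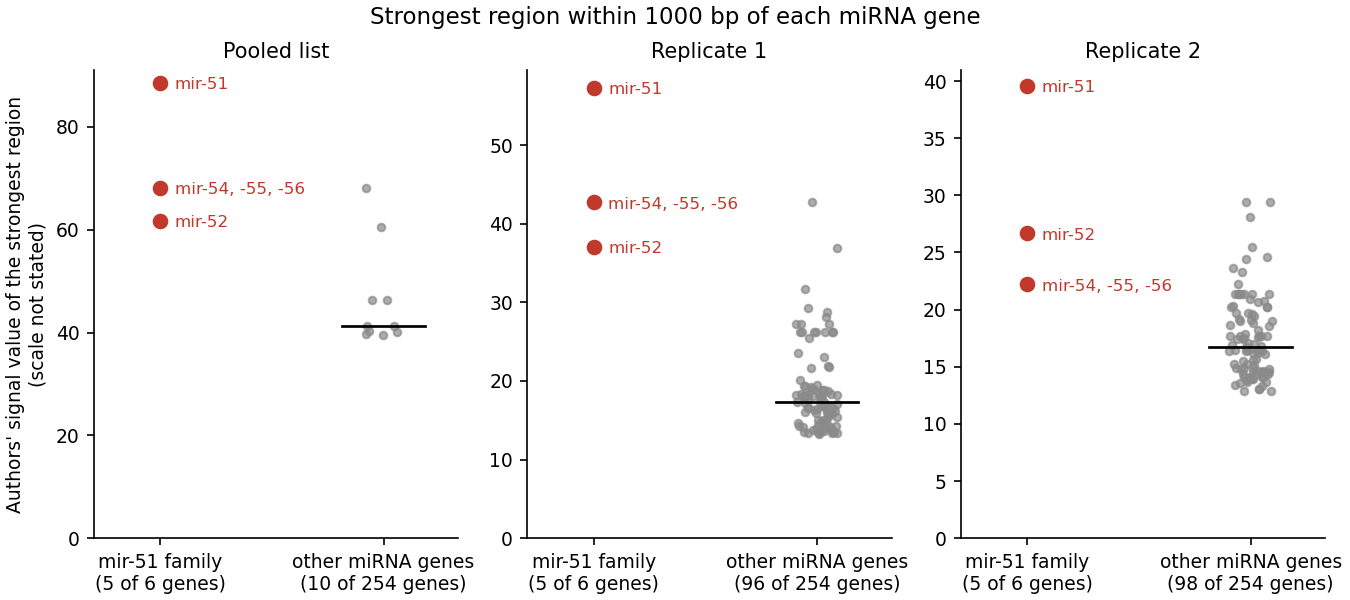
Authors' signal value (scale not stated) of the strongest region within 1000 bp of each family gene (red) and of each other miRNA gene with a region (grey, with the median as a line), in the pooled list and in each replicate. mir-51 is highest in each panel, and the mir-54 cluster stands at 22.2 in replicate 2, among the higher grey points.

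Among the 254 other miRNA genes none had a signal value above that of mir-51 in any list. Those with a region had a median of 41.4 and a highest value of 68.2 in the pooled list, a median of 17.4 and a highest of 42.7 in replicate 1, and a median of 16.7 and a highest of 29.4 in replicate 2. The highest in the pooled list and in replicate 1 belonged to F09A5.15, which is antisense to mir-55 and was counted for the region of the mir-54 cluster itself. It was also the only other miRNA gene with an optimal region. No other miRNA gene exceeded the mir-54 cluster in the pooled list or in replicate 1, and 8 did in replicate 2. mir-52 was exceeded by F09A5.15 in the pooled list and in replicate 1, and by 3 genes in replicate 2. These 3 were mir-1819 and mir-2212, which share a region with a signal value of 29.4, and mir-84 with 28.1, which was named after its value was seen.

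F09A5.15 had the ranks of the mir-54 cluster, whose region it shares. The other miRNA gene nearest in its ranks to mir-52 and to mir-51 was mir-4936 (chrIII:3249151-3249260), which came after F09A5.15 for the mir-54 cluster. Its signal value was 37.0 in replicate 1 (rank 106), 25.5 in replicate 2 (rank 404) and 60.5 in the pooled list (rank 116), with the pooled summit in the gene, as at mir-52. Likeness was measured as the sum of the absolute differences of log10 rank over the 2 replicates, and mir-4936 was 0.123 from mir-52, 0.655 from the mir-54 cluster and 1.45 from mir-51. Leaving aside F09A5.15, mir-1829.2 came next, with ranks 405 and 1426, at 1.01 from the mir-54 cluster, 1.25 from mir-52 and 2.57 from mir-51. The remaining miRNA genes with a pooled region were mir-1819 and mir-2212 at 46.4, mir-86 and mir-8211 at 41.4, mir-77 at 40.3, mir-1829.2 at 40.1, and mir-46 and mir-57 at 39.6 each.

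**Figure D3:**
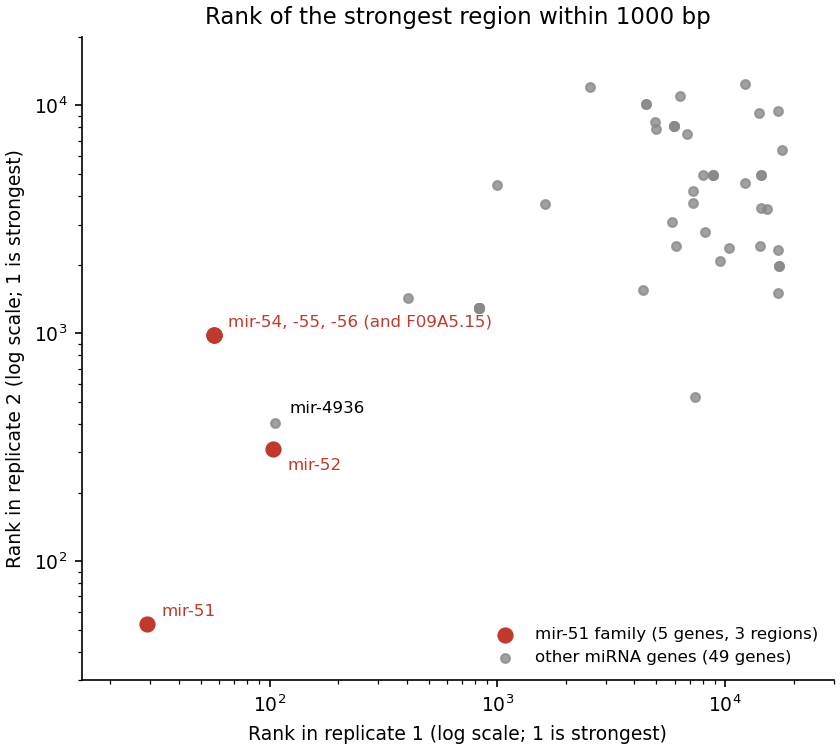
Rank of the strongest region within 1000 bp in replicate 1 and in replicate 2 (both log axes, 1 is strongest) for the miRNA genes with a region in both, with the 5 family genes in red and 49 other miRNA genes in grey. The 3 regions of the family lie toward the lower left, with mir-4936 beside mir-52 and with F09A5.15 under the point of the mir-54 cluster.

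A region in both replicates was present at 5 of the 6 family genes, beside 19.3% of the other miRNA genes (49 of 254). A region among the 1000 strongest of both replicates was present at the same 5, beside 0.787% (2 of 254), namely F09A5.15 and mir-4936. The mir-54 cluster reached this only narrowly, with rank 982 in replicate 2. Counted by locus, with miRNA genes within 1000 bp of each other joined, 2 of the 4 family loci had a region in the optimal list. In each of the other lists 3 of 4 had one. F09A5.15 falls into the mir-54 locus and so is not among the other loci. Of 217 other miRNA loci, 0 had one in the optimal list (exact Clopper-Pearson 95% interval up to 1.69%), 7 in the pooled list (3.23%, 1.31 to 6.53%), 78 in replicate 1 (35.9%, 29.6 to 42.7%) and 76 in replicate 2 (35.0%, 28.7 to 41.8%). These intervals cover counting error only. By signal value the mir-51 locus came first in every list. The mir-54 locus came second of 10 loci with a region in the pooled list and 10th of 79 in replicate 2, and the mir-52 locus 3rd of 10 and 4th of 79.

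Grouping mature miRNAs by bases 2 to 8 gave 16 families of at least 3 genes. The mir-51 family had 5 of 6 genes with a pooled region. Of the 15 other families, 0 had a gene with an optimal region and 1 had a gene with a pooled region, mir-1829.2. The largest, that of mir-35 with 8 genes, had 0 in the pooled list but 8 of 8 in each replicate list. The let-7 family of 5 genes, known for the timing of larval development, had 0 in the pooled list, 0 in replicate 1 and 2 in replicate 2. Genes of one family often stand side by side and share a region, as mir-54, mir-55 and mir-56 do, so these counts are not independent.

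**Figure D4:**
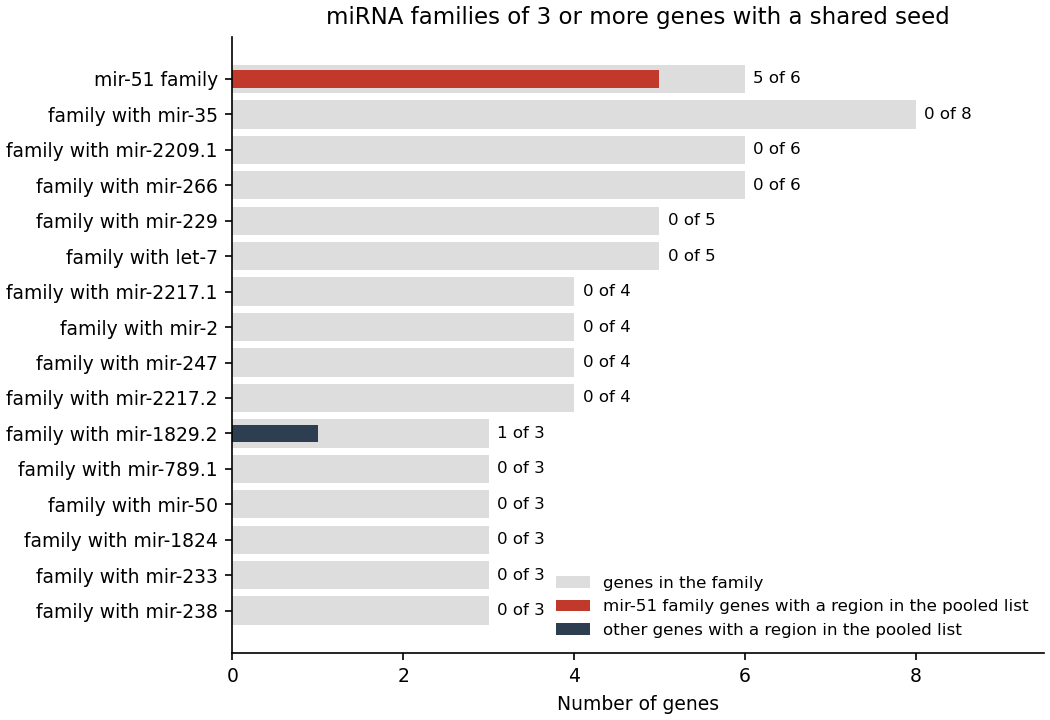
Number of genes in each miRNA family of 3 or more genes with a shared seed (light bars) and number with a summit within 1000 bp in the pooled list (red for the mir-51 family, dark for others). The mir-51 family has 5 of 6, the family with mir-1829.2 has 1 of 3, and the other families shown have 0.

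What stands upstream of the family genes was read from the annotation. The genes were chosen on summits, and summits of the shorter lists fell more often in non-coding RNA genes, as given below. The count of upstream genes is therefore not independent of the choice, and these neighbours were named after their values had been seen. A non-coding RNA gene on the same strand lay within 250 bp upstream of 3 of the 6, namely F36H1.17 at mir-51, F09A5.11 at mir-54 and WBGene00195705 at mir-52, and of 17 of the 254 other miRNA genes (6.69%). These are the 3 genes nearest to a pooled summit. Across the lists, 17 of 81 nuclear optimal summits (21.0%) and 95 of 1221 pooled summits (7.78%) fell in a non-coding RNA gene, against 2.25% in replicate 1 and 2.56% in replicate 2. Only genes of the annotation class ncRNA entered these counts and the upstream count. Genes annotated as tRNA, snoRNA, snRNA or miRNA did not. In the pooled list 29.6% of 612 tRNA genes had a summit within 1000 bp (exact 95% interval 26.0 to 33.4%), as did 19.1% of 346 snoRNA genes (15.1 to 23.6%) and 14.0% of 129 snRNA genes (8.48 to 21.2%). The intervals of the tRNA, snoRNA and snRNA genes lie above that of the other miRNA genes (1.90 to 7.12%). That of non-coding RNA genes, the class of the upstream genes named here, lies inside it, at 4.87% of 7762 genes (4.40 to 5.37%). Genes that share a region are not independent.

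Short words upstream of the 6 genes were searched on both strands in the 300 bases from 250 before to 50 after the 5′ end. CTCCGCCC, a word reported upstream of nematode miRNA genes, was in none of the 6 windows and in 7.87% of the other 254. Its core CCGCCC was present at mir-52 and mir-54, beside 22.4% of the others. GAGAGA was present at mir-52, mir-53, mir-54 and mir-55, beside 22.8%, and TATAAA, the core of the TATA box, at mir-52 and mir-53, beside 28.7%. No word was found at all the genes with a region. mir-53, which had none, held GAGAGA and TATAAA as mir-52 did. The words CCGCCC and CTCCGCCC overlap, so they are not separate observations. The windows of mir-54 and mir-55 also overlap. The only GAGAGA match of mir-55 lies in the shared stretch and is counted for mir-54 too.

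The surroundings of the genes held differing numbers of regions. Within 20 kb of mir-51 there were 13 regions in replicate 1 and 6 in replicate 2, within 20 kb of mir-54 there were 12 and 10, and within 20 kb of mir-52 there were 4 and 2. The other miRNA genes had medians of 7 in replicate 1 and 5 in replicate 2. In the pooled list the same windows held 1 region at mir-51, 1 at mir-54 and 2 at mir-52.

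Genes that make or use miRNAs were also examined, from a list of 15 that included cdh-3. A summit within 1000 bp of the 5′ end was present at 0 of 15 in the optimal list, beside 0.205% of 19971 protein-coding genes, and at 3 of 15 in the pooled list, beside 2.98%. In replicate 1 it was present at 7 of 15, beside 31.6%, and in replicate 2 at 4 of 15, beside 23.9%. The strongest was at ain-1, which encodes a GW182 protein that works with the Argonautes. Its signal value was 29.7 in replicate 1 (rank 372), 33.4 in replicate 2 (rank 92) and 46.9 in the pooled list (rank 416), with the pooled summit 983 bp away, near the limit. cgh-1, a DEAD-box RNA helicase of RNA granules, had 25.4, 22.0 and 40.0 in the same order of lists, and tsn-1, a Tudor staphylococcal nuclease, had 21.4, 21.5 and 40.4. xrn-2, an exonuclease that degrades miRNAs in the worm, had a region in both replicates, with 20.6 and 16.0, and none in the pooled list. drsh-1, pash-1, dcr-1, alg-1 and cdh-3 had no region in any list. All 4 genes with a region in both replicates were weaker than mir-51 in each list where they had one, and ain-1 was stronger than mir-52 and the mir-54 cluster in replicate 2.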

How the data were processed

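Per the labels, anti-GFP ChIP-seq was done on 2 biological replicates of 1 group. The authors deposited region lists in narrowPeak layout. Per the file notes, each replicate list was made from its own alignment and 1 control alignment, the pooled list from both replicates, and the optimal list by the IDR procedure. The signal value deposited for each region is a score of unstated scale. Which aligner and peak caller made the lists is not given in the sources used here. The control library, alignments and signal tracks are not analysed here. Most regions of a list have 1 width with the summit at the middle. The width was 456 bp in 1229 of 1242 pooled regions and in 89 of 102 optimal regions. Such fixed widths carry no information on binding.

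The lists of build ce11 were used. Every region end lay within the chromosomes of WBcel235, whose RefSeq genome and annotation gave genes, sequences and positions (1-based). The summit is column 2 plus column 10. Distances ran from the summit to the annotated gene, or to the 5′ end of protein-coding genes. Ranks were taken over all regions of a list. Mature miRNAs came from the annotation of 260 genes. Python 3.11.15, pandas 2.3.3, NumPy 2.4.6, SciPy 1.17.1 and Biopython 1.88 were used, and the search for regions was tested on simulated data.

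The members and lists were chosen with earlier results of these data known. The study has 1 group, so no condition was compared and no p-value was computed. Other miRNA genes were named if they had an optimal region, were among the 10 strongest in the pooled list, or were among the 3 nearest to a member by rank. Non-coding RNA neighbours, mir-84 and the mir-35 and let-7 families were named after their values were seen. Precision is set by the number of genes and regions, and exact intervals cover counting error only.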

Additional observations from a re-analysis of the deposited data

How the results depend on the processing

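Of 88 alternative values, 62 were labelled the same as the value reported and 26 were labelled moved. Counts and shares were the same if they lay within 1.5 times the value reported. Ranks were the same within the standard deviation of the ranks in the 2 replicates, and shares of unique words if they were equal. Reversed orders were not looked for. Within 2000 bp the family count was 5 in the optimal list and 6 in the other lists, mir-53 included. Within 250 bp the family count was 2 in the optimal list and 3 in the pooled and both replicate lists, and with genes that share a region counted once it was again 2 and 3. The share of other miRNA genes within 250 bp was 0% in the optimal list, 1.18% in the pooled list, 13.8% in replicate 1 and 16.5% in replicate 2. It was 6.69% in the pooled list within 2000 bp, 25.6% in replicate 2 within 500 bp, and 0% in the optimal list by locus. Among the 1000 strongest regions it was 6.69% in replicate 1 and 3.54% in replicate 2. Leaving 1 replicate out meant reading the list of the other replicate, with no new pooling. The share was then 37.8% to 38.6%, since a replicate list is far longer. Ranks in the replicate lists were 29 to 53 for mir-51, 104 to 310 for mir-52 and 57 to 982 for mir-54, mir-55 and mir-56. The rank of mir-51 was 18 among nuclear regions. By column 9, an alternative added after seeing the data, it was 1, tied with others, and mir-52 (75) came before the mir-54 cluster (108). Asking for an A box too, also added then, left 19 of the 46 pooled summits with a B box. The cause of these shifts was not tested unless stated. Ranking by column 8 was not run, as it holds 1 value throughout. By chromosome, width and signal value within 0.1%, the ce10 lists held the mir-51, mir-54 and mir-52 regions at the same ranks in the pooled list and in replicate 1. In replicate 2 no single match was found, with 0 for mir-51 and mir-52 and 8 for mir-54. No paired analysis was possible because there is 1 group.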
